A study of Eurytemora affinis with 4 samples.

Results

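Many transcribed loci of the copepod Eurytemora affinis are listed at exactly the same place in the genome as another locus. These loci were taken from the authors' Cuffdiff table of males against females by 3 conditions: a contig named Scaffold, a span (end minus start) of at least 500 bases, and a coordinate string that occurs for 2 or more gene identifiers. The rule gave 24744 members in 9670 coordinate groups, out of 61672 loci in all. The rule itself uses no expression value, but the members were chosen with earlier results of these data known. Eurytemora affinis is a small calanoid copepod of estuaries and coasts, and poly(A) RNA of whole adults was sequenced from 2 libraries of male pools and 2 libraries of female pools. The groups were adult males and adult females, both reared in culture at 13 °C and 15 PSU under 15 h of light and 9 h of dark. The sexes were kept apart for 2 days, and in the final 24 h the animals were starved and given 120 µL per L of 6.0 µm microsphere beads that empty the gut. The libraries were strand-specific. The labels name neither the strain nor the number of animals in a pool, and nothing in them ties a pool to a culture of its own.

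A stretch of genome can give rise to several transcripts. Alternative promoters, splice sites and ends make isoforms of one gene, and separate genes can also lie inside each other's introns or on opposite strands. In insects such as Drosophila, males and females are known to splice some transcripts of the same gene differently, among them those of the sex-determination gene doublesex. Where transcripts share exons, a read from the shared part fits all of them, and a program has to divide such reads between the transcripts before it can give each a level. Whether the members described here share reads was not tested.

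The coordinates in the table are those of a block and not of the member itself. Among the 46401 distinct coordinate strings on scaffolds, 0 pairs overlapped, so that every locus that overlaps another carries the identical string. The table gives neither the extent nor the strand of a member within its block. No source used here names the genome build, and no sequence of these blocks was used. Positions are counted from 1.

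The groups were mostly small. A pair of members made up 6268 groups (64.8%), 3 members made up 2111 groups, and 154 groups held 6 or more members, up to 9. The median span of a group was 7494.5 bases, with a range of 502 to 66669, against 2563.5 bases for the 27996 scaffold loci of the same minimum length that have their coordinates to themselves, called other loci below. At the edge of the length rule, the shortest group inside it lay on Scaffold120, bases 354445 to 354946, where GENE_0110509 had 368 FPKM in males and 841 FPKM in females. FPKM is a fragment count corrected for the length of the transcript and the depth of the library, and the table holds 1 pooled value per sex. The longest group outside, at 499 bases on Scaffold457, had at most 0.0216 FPKM in males and 0 in females.

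In most groups the members came from the same assembly unit under separate gene identifiers. Cufflinks, the assembler named in the submitters' processing notes, numbers each transcript by an assembled locus and then by a transcript within it. Another numbering, with the prefix comp, was carried by transcripts of 185 members (0.748%) in 112 groups, and its components were counted as assembled loci too. All transcripts came from 1 assembled locus in 6751 groups (69.8%), from 2 in 2515 groups (26.0%) and from 3 or more in 404 groups (4.18%). In 5251 groups (54.3%) at least 2 members also shared an entry in a composite gene identifier, as in a block on Scaffold1 where the identifier of GENE_0104751 joins those of GENE_0104752 and GENE_0104753 with a further one. Composite identifiers were carried by 5724 members (23.1%) and by 0 of the 27996 other loci. A member usually held 1 isoform, in 22859 of 24744 cases (92.4%), against 25023 of the other loci (89.4%).

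Members were listed at lower levels than other loci. Loci that reached 1 FPKM in males, in females or in both are called measured from here on. Of the members, 7818 (31.6%) were measured, against 11592 of the other loci (41.4%). The higher of the male and female FPKM had a median of 0.270 for members and 0.646 for other loci. Among measured loci the medians were 3.93 and 4.38. Both sexes were at 0 FPKM for 2389 members (9.65%) and 704 other loci (2.51%). No member was measured in 4101 groups, 1 member in 3633 and 2 or more in 1936 groups, and these 1936 groups with 4185 measured members carry the comparisons within groups.

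The share of members called sex-biased depended on the tool. In the authors' deposited table, Cuffdiff called 1726 of 14107 tested members (12.2%) at an adjusted p under 0.05. Of these calls, 578 were male-biased and 1148 female-biased. Over all loci the share was 17.5%, with 7.06% male-biased and 10.4% female-biased, and over other loci it was 21.4%. By edgeR, a test on counts, 2853 of 16003 listed members (17.8%) were called in the authors' deposited table. There, 1356 calls were male-biased and 1497 female-biased. Over all loci matched between the tables edgeR called 18.1%, with 8.64% male-biased and 9.44% female-biased, and over other loci 18.6%. The edgeR share of members lay near its background and the Cuffdiff share below its own. At 10 FPKM or more in one sex, Cuffdiff called 34.3% of 2031 members and 47.1% of 3362 other loci, and edgeR called 34.8% of 1779 members and 40.3% of 3298 other loci. These shares come from 1 set of libraries and were not tested against each other. In whole animals, a lower level in one sex can come from fewer cells of a type or from less RNA per cell, and the 2 cannot be told apart.

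A measured member was called male-biased or female-biased at a ratio of 2-fold or more between the male and female FPKM, and a member listed at 0 in one sex counted as biased. By this rule 3945 of 7818 measured members (50.5%) were biased, 1739 toward males and 2206 toward females. Over all 23745 measured loci the share was 53.5%, with 26.4% toward males and 27.1% toward females. Over the 11592 measured other loci it was 46.2%, with 20.9% toward males and 25.3% toward females. The share of members lay between these. Of the 1936 groups with 2 or more measured members, 410 were concordant, with all of them biased the same way, 159 toward males and 251 toward females. Another 784 groups (40.5%) were one-sided, with some members biased one way and the rest within 2-fold, 329 toward males and 455 toward females. No member passed 2-fold in 528 groups (27.3%).

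Opposite bias was found in 214 groups, which is 11.1% (95% Clopper-Pearson interval 9.69% to 12.5%, counting error only). In these groups at least 1 member was 2-fold or more higher in males and at least 1 was 2-fold or more lower. A group with more measured members has more ways to hold both directions. Of the 214 groups, 165 had exactly 2 measured members, and of all 1936 groups 265 had 3 or more. The pooled values carry no spread between libraries, so a 2-fold ratio is a size and not a test. Cuffdiff called no biased member in 125 of the 214 groups, 1 in 84 and 2 or more in 5, in the authors' deposited table. The calls differed by direction. Of the biased members of these groups that edgeR lists, Cuffdiff called 16 of 164 male-biased ones (9.76%) and 71 of 191 female-biased ones (37.2%). The edgeR test called 52 (31.7%) and 75 (39.3%) of them. When the FPKM of all measured members was summed, 144 of the 214 groups (67.3%) were within 2-fold between the sexes, 22 were higher in males and 48 were lower in males. The sum of opposing members cancels by construction, so this share describes the blocks and nothing more.

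**Figure D1:**
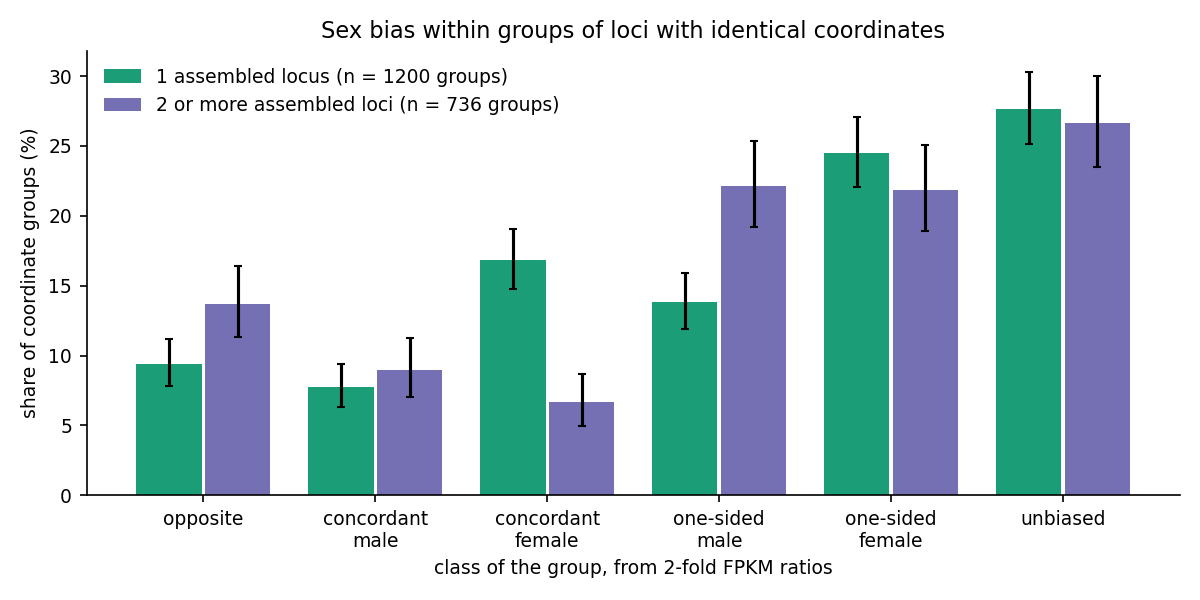
Share of coordinate groups in each class of sex bias, in percent, for 1200 groups whose measured members come from 1 assembled locus and 736 groups with 2 or more assembled loci. Bars are shares and whiskers exact 95% Clopper-Pearson intervals; concordant female groups make up 16.8% of the first kind and 6.66% of the second.

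Groups from 1 assembled locus and groups from several were classed differently. Opposite bias was present in 113 of 1200 groups of 1 assembled locus (9.42%, interval 7.82% to 11.2%) and in 101 of 736 groups of 2 or more (13.7%, interval 11.3% to 16.4%). Concordant bias toward females was present in 202 (16.8%, interval 14.8% to 19.1%) and 49 (6.66%, interval 4.97% to 8.71%) of them. Concordant bias toward males was nearly as frequent in both kinds, 7.75% and 8.97%. One-sided bias toward males was present in 13.8% and 22.1%. The 2 kinds also differed in members listed at 0 in one sex, which count as biased. Of the pairs of measured members in a group, 1557 of 1660 from the same assembled locus had no such member. For pairs from different assembled loci it was 780 of 961. Whether this accounts for the differences in class was not tested. The intervals cover counting error only, and groups are not replicates.

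Pairs of members were set beside pairs of neighbouring loci. Of 2621 pairs of measured members with the same coordinates, 1685 (64.3%, interval 62.4% to 66.1%) had FPKM ratios of the same sign. Pairs from the same assembled locus had the same sign in 69.3% of 1660 cases and pairs from different assembled loci in 55.6% of 961. Among 15690 pairs of measured scaffold loci with different coordinates up to 10000 bases apart, the share was 70.2%. All these pairs come from the same libraries, and the shares were not tested against each other. With the edgeR log2 fold change in place of the FPKM ratio, the shares in the authors' deposited table were 65.5% of 1927 pairs within groups and 66.8% of 12416 neighbouring pairs. Split by assembled locus, the edgeR shares in the authors' deposited table were 66.3% of 1359 pairs from the same one and 63.6% of 568 pairs from different ones, a smaller gap than by FPKM. The median absolute difference of the log2 FPKM ratios was 0.98 within groups and 0.72 between neighbours, where both ratios were finite. Opposite ratios of 2-fold or more occurred in 9.19% of pairs within groups and 5.63% of neighbouring pairs by FPKM, and in 4.72% and 4.75% by edgeR. Where all 4 FPKM of a pair were at least 1, the FPKM shares were 2.62% of 1184 pairs within groups and 1.96% of 8315 neighbouring pairs. The edgeR shares of such pairs were 3.26% of 981 and 2.79% of 7267, in the authors' deposited table.

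**Figure D2:**
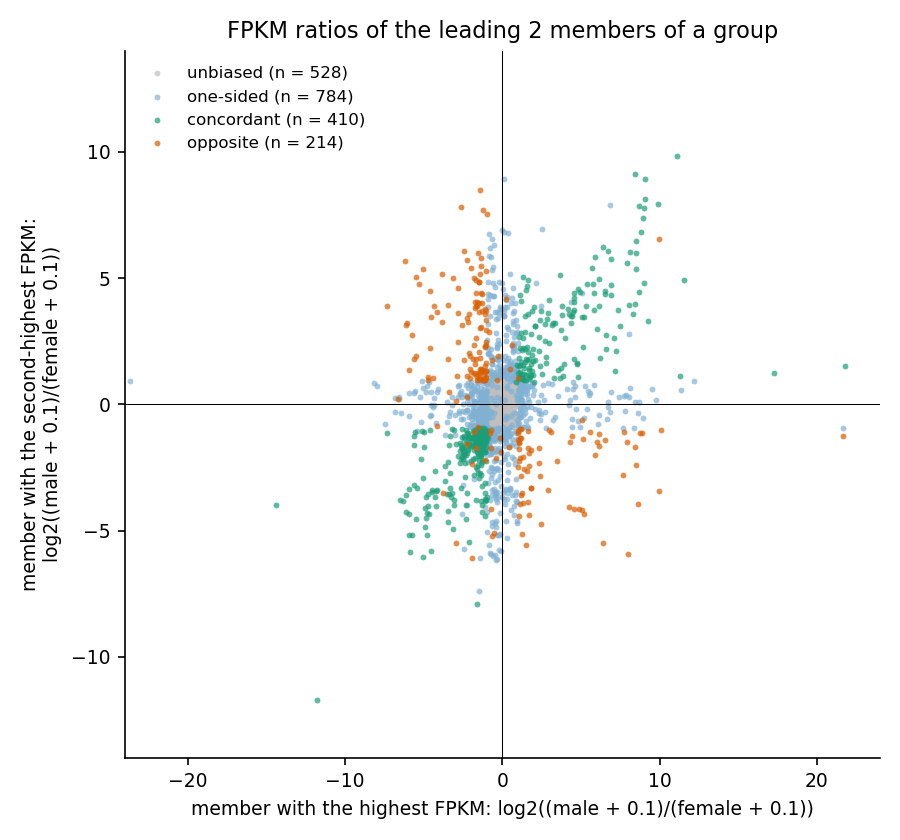
Log2 ratio of male to female FPKM, with 0.1 added to both, of the member with the highest FPKM (x axis) and of the member with the second-highest FPKM (y axis) in each of 1936 groups. Each point is a group, coloured by its class; 214 opposite groups lie mostly where the axes have opposite signs and 410 concordant groups where they have the same sign.

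The strongest opposition by FPKM rested on values near 0. The 8 groups with the largest opposing ratios were named by rule, and each of them had a member listed at 0 or at no more than 0.0326 FPKM in one sex. On Scaffold1, bases 299074 to 304531, GENE_0104753 had 201 FPKM in males and 0.0977 FPKM in females, and GENE_0104752 had 14.2 and 0.0547. GENE_0074340 in the same block was listed at 0 in males and at 6.21 FPKM in females. GENE_0104753 was called by both tools in the authors' deposited tables, with a Cuffdiff adjusted p of 0.00294 and an edgeR log2 fold change of 12.00 (adjusted p = 2.85e-51). GENE_0074340 was not called by Cuffdiff (adjusted p = 0.202) and stands in no row of the edgeR table used here, so the female side of this block has no call. It is also from another assembled locus than the male-biased pair.

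The second such block had the same form. On Scaffold43, bases 586421 to 591355, GENE_0151159 had 78.5 FPKM in males and 0.213 FPKM in females, and GENE_0151160 was listed at 0 in males and at 6.05 FPKM in females. The edgeR log2 fold change of GENE_0151160 was 4.71 in the authors' deposited table, toward males, with an adjusted p of 0.132. The FPKM and the edgeR value of this member point in opposite directions. On Scaffold9, bases 2456999 to 2469903, GENE_0174521 had 8.73 FPKM in males and 0.00443 FPKM in females, and GENE_0174523 was listed at 0 in males and at 4.37 FPKM in females. On Scaffold41, bases 256926 to 265261, GENE_0045787 had 5.41 and 0.0326 FPKM in males and females, and GENE_0048132 had 0.248 and 11.3. The male-biased members of both blocks were called by edgeR in the authors' deposited table, at a log2 fold change of 9.70 for GENE_0174521 and 9.40 for GENE_0045787. Cuffdiff also called GENE_0045787 (adjusted p = 0.00294), and neither female-biased partner was called by Cuffdiff or listed by edgeR.

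In the other 4 blocks the opposed members came from 1 assembled locus and had no call by either tool. On Scaffold17, bases 1753112 to 1755306, GENE_0005749 had 6.69 FPKM in males and 0.0333 FPKM in females, while GENE_0042238 had 0.0138 and 8.29. The edgeR log2 fold change was -1.65 for GENE_0005749 and 0.48 for GENE_0042238 in the authors' deposited table, each opposite in sign to the FPKM ratio (adjusted p = 0.741 and 0.813). The summed FPKM of the block was 6.71 in males and 8.33 in females. On Scaffold90, bases 404000 to 409392, GENE_0174754 had 3.61 and 0.0122 FPKM in males and females, and GENE_0174753 had 0.0141 and 4.96, with sums of 3.62 and 4.98. On Scaffold640, bases 8148 to 9848, GENE_0165350 had 2.75 and 0.00526 FPKM in males and females, and GENE_0165349 had 0.00228 and 3.97, with sums of 2.75 and 3.98. On Scaffold766, bases 14 to 3017, GENE_0170286 had 2.92 and 0.000601 FPKM in males and females, GENE_0170281 was listed at 0 and 3.30, and GENE_0170285 had 4.65 and 6.65. In all 4 blocks the sums of the sexes differed by less than 2-fold. In 3 of them a different member held nearly all of the FPKM in each sex, whereas GENE_0170285 led the block on Scaffold766 in both sexes.

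Over all 214 opposite groups, 85 had a biased member below 0.01 FPKM in one sex and 129 had none. All biased members were at 1 FPKM or more in both sexes in 29 groups. Of the 355 biased members of opposite groups that edgeR lists, 264 (74.4%) had the same sign in both of the authors' deposited tables, against 672 of 720 (93.3%) in concordant groups and 590 of 682 (86.5%) in one-sided groups. Among groups with at least 2 measured members listed by edgeR, 30 of 148 opposite groups (20.3%) were also opposite at 2-fold by edgeR. Of the 112 concordant male groups, 100 (89.3%) were concordant toward males by edgeR too, whereas 87 of 195 concordant female groups (44.6%) kept that class.

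Blocks opposed by both FPKM and edgeR were fewer. In 5515 groups edgeR lists at least 2 members, and in 1856 of these it called at least 1. The edgeR test called members in both directions in 72 groups in the authors' deposited table, out of 532 groups with 2 or more called members. Another 228 groups held male-biased calls alone and 232 female-biased calls alone. All called members were measured in 32 of the 72 groups, the FPKM ratios had the same signs in 26, and every ratio was 2-fold or more in 16. These 16 groups were chosen after their values were seen. Their 16 male-biased members had a median of 6.11 FPKM in males (range 1.13 to 290.5) and 0.565 FPKM in females (range 0 to 72.5). Their 18 female-biased members had a median of 1.70 FPKM in males (range 0 to 10.9) and 8.34 FPKM in females (range 1.25 to 28.1). The edgeR log2 fold changes in the authors' deposited table had medians of 3.91 (range 1.19 to 10.48) and -1.79 (range -4.23 to -0.81). The opposed members came from the same assembled locus in 8 groups and from different ones in 8.

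**Figure D3:**
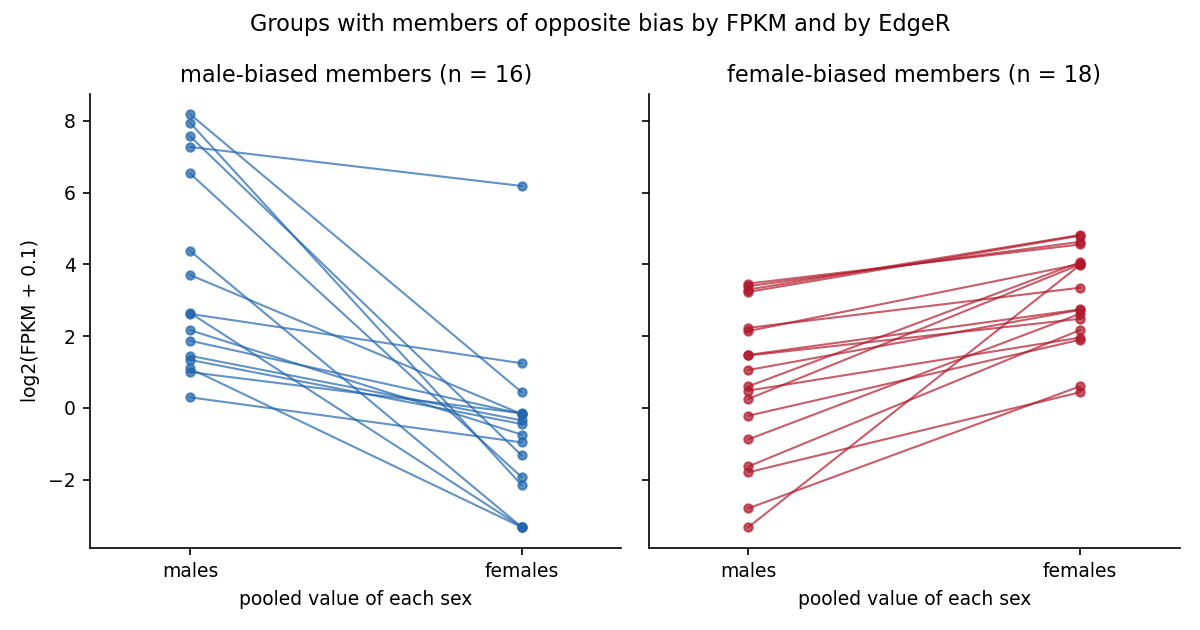
Pooled FPKM of males and females, as log2(FPKM + 0.1), for the 16 male-biased and 18 female-biased members of 16 groups opposed by FPKM and by edgeR. Each line is a member; members at 0 FPKM stand at the lower end of the axis, and every line falls toward females on the left and toward males on the right, since the members were chosen on both measures.

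In 1 block both members were called by both tools in both directions. On Scaffold2, bases 4619869 to 4636988, GENE_0078259 had 290.5 FPKM in males and 1.25 FPKM in females, and GENE_0027814 had 10.9 FPKM in males and 23.4 FPKM in females. Cuffdiff gave adjusted p values of 0.0318 and 0.0214, and edgeR gave log2 fold changes of 10.06 and -0.81 (adjusted p = 1.24e-33 and 0.0272), in the authors' deposited tables. GENE_0078259 led the block in males by a wide margin and GENE_0027814 led it in females. The members belong to different assembled loci, and GENE_0027814 holds 3 isoforms. GENE_0078259 also stands in the authors' set of loci called by all 3 methods (Cuffdiff and edgeR in 2 modes).

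Cuffdiff tested at least 2 members in 4672 groups and called at least 1 in 993 of these. It called members in both directions in 3 groups, out of 51 groups with 2 or more called members. Of the 51, 17 held male-biased calls alone and 31 female-biased calls alone. The block on Scaffold2 above is among the 3 called in both directions, and all 3 were chosen after their values were seen. On Scaffold7, bases 779968 to 793229, GENE_0167765 had 22.1 FPKM in males and was listed at 0 in females, while GENE_0167763 had 6.21 FPKM in males and 38.9 FPKM in females. The Cuffdiff adjusted p values were 0.00570 and 0.000859 in the authors' deposited table, and the male-biased member has no edgeR value here. On Scaffold272, bases 139536 to 175352, GENE_0134813 had 3.35 FPKM in males and was listed at 0 in females, GENE_0134812 had 2.34 and 10.6 FPKM, and GENE_0134811 had 11.9 and 16.0 FPKM. The edgeR log2 fold change of GENE_0134813 was 0.67 in the authors' deposited table, with an adjusted p of 0.121. The measured members came from the same assembled locus in both blocks.

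Several of the 16 blocks were balanced in sum. On Scaffold28, bases 1597027 to 1611441, GENE_0011877 had 3.56 and 0.792 FPKM in males and females, and GENE_0072657 had 0.760 and 3.63. The sums were 4.32 FPKM in males and 4.42 FPKM in females, so that the leading member differed between the sexes while the sums were within 2-fold. On Scaffold334, bases 289899 to 305782, GENE_0021972 had 6.05 and 2.27 FPKM in males and females and GENE_0012045 had 2.68 and 6.60, with sums of 8.73 and 8.87. On Scaffold27, bases 1231219 to 1258652, GENE_0091393 had 12.9 FPKM in males and 0.788 FPKM in females, and GENE_0084048 was listed at 0 in males and at 15.8 FPKM in females. Both members of the Scaffold27 block are from 1 assembled locus, and the authors' deposited table has an edgeR log2 fold change of 3.86 for GENE_0091393 (adjusted p = 1.03e-26) and -3.61 for GENE_0084048 (adjusted p = 2.71e-23). Summed FPKM was within 2-fold in 6 of the 16 groups, 2-fold or more higher in males in 6 and 2-fold or more lower in males in 4.

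In other blocks of the 16 a strongly male-biased member lay beside a weakly female-biased one. On Scaffold221, bases 417137 to 430771, GENE_0074804 had 246 FPKM in males and 0.125 FPKM in females, and GENE_0017203 had 2.65 and 5.49. On Scaffold513, bases 121 to 17524, GENE_0157970 had 189.8 and 0.299 FPKM in males and females, and GENE_0157969 had 4.59 and 10.1. On Scaffold9, bases 310032 to 317897, GENE_0103196 had 92.5 and 0.162 FPKM in males and females, and GENE_0017012 had 1.98 and 6.55. The male-biased members of these 3 blocks had edgeR log2 fold changes between 8.58 and 9.38 in the authors' deposited table and came from other assembled loci than their partners. A block with several female-biased members lay on Scaffold45, bases 302721 to 317012. There GENE_0152741, GENE_0152744 and GENE_0152743 had 1.09, 0.445 and 0.223 FPKM in males and 15.9, 6.07 and 4.41 FPKM in females, and GENE_0152747 had 2.04 FPKM in males and was listed at 0 in females. The edgeR log2 fold changes in the authors' deposited table were -2.35 for GENE_0152741, -3.49 for GENE_0152744 and -4.23 for GENE_0152743, and 10.48 for GENE_0152747, the highest among the 16 male-biased members.

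Concordant male groups had a median summed level of 10.8 FPKM in males and 0.794 FPKM in females. On Scaffold1, bases 4629453 to 4632548, GENE_0105465 had 1054 FPKM in males and 2.95 FPKM in females, and GENE_0105464 had 271 and 0.389. Both were called male-biased by both tools in the authors' deposited tables, with edgeR log2 fold changes of 5.77 and 9.07. The order of the members differed between the tools: GENE_0105465 led by FPKM, but the average log2 CPM (a level scaled for library size and not for length) was 4.63 for GENE_0105465 and 9.51 for GENE_0105464. On Scaffold39, bases 85742 to 92707, GENE_0147205, GENE_0147203 and GENE_0147202 had 1073, 132 and 78.5 FPKM in males and 0.382, 0.0454 and 0.0981 FPKM in females. Cuffdiff called GENE_0147205 alone (adjusted p = 0.00161), whereas the lowest edgeR adjusted p in the authors' deposited table was for GENE_0147202 (log2 fold change 12.36, adjusted p = 4.42e-108). On Scaffold318, bases 313490 to 320650, GENE_0140491 and GENE_0140490 had 59.5 and 48.6 FPKM in males and 0.00991 and 3.99e-06 FPKM in females. Neither was called by Cuffdiff (adjusted p = 0.356 and 0.372), and both were called by edgeR in the authors' deposited table (adjusted p = 6.36e-67 and 8.94e-21).

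The other concordant male blocks named by rule had fewer calls. On Scaffold445, bases 224884 to 225430, GENE_0184271 and GENE_0184272 had 916 and 69.3 FPKM in males and 428 and 32.7 FPKM in females, with no call by Cuffdiff (adjusted p = 0.523 and 0.424). On Scaffold86, bases 83513 to 95545, GENE_0060115 was listed at 364006 FPKM in males and at 0 in females without a Cuffdiff call, and its partner GENE_0004053 had 51.5 and 18.0 FPKM. GENE_0004053 was called by both tools in the authors' deposited tables, with an edgeR log2 fold change of 1.75. Over all 159 concordant male groups, Cuffdiff called no member in 62, 1 member in 88 and 2 or more in 9, in the authors' deposited table.

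Concordant female groups had a median summed level of 3.25 FPKM in males and 12.5 FPKM in females. On Scaffold373, bases 58266 to 60507, GENE_0145886 had 496 FPKM in males and 1457 FPKM in females, and GENE_0145885 had 8.91 and 24.1. In the authors' deposited table edgeR gave GENE_0145886 a log2 fold change of -1.55 (adjusted p = 0.0300) and GENE_0145885 one of -1.27 (adjusted p = 0.00068). On Scaffold27, bases 1196242 to 1230108, GENE_0070397 had 49.5 and 119.6 FPKM in males and females and GENE_0103592 had 11.6 and 37.6. On Scaffold423, bases 135493 to 147521, GENE_0037443 had 23.5 and 49.0 FPKM in males and females and GENE_0103638 had 15.2 and 34.2. The edgeR log2 fold change of GENE_0037443 was 0.96 in the authors' deposited table, opposite in sign to its FPKM ratio and without a call. Its average log2 CPM was 1.10. On Scaffold225, bases 396934 to 419491, GENE_0073528 had 10.5 and 51.6 FPKM in males and females and GENE_0001926 had 13.97 and 28.2. In these 3 blocks Cuffdiff called the member with several isoforms and not the other one, in the authors' deposited table. On Scaffold300, bases 22305 to 32857, GENE_0138794 had 4.84 FPKM in males and 28.5 FPKM in females and GENE_0138793 had 6.28 and 27.1, both called by Cuffdiff in the authors' deposited table. By edgeR GENE_0138793 had a log2 fold change of -2.04 and GENE_0138794 one of 3.23 with an adjusted p of 0.813, opposite in sign to its FPKM ratio. Over all 251 concordant female groups, Cuffdiff called no member in 85, 1 member in 138 and 2 or more in 28, in the authors' deposited table. Of tested biased members that edgeR lists, Cuffdiff called 39.1% of 714 in concordant groups. It called 24.5% of 355 in opposite groups and 21.6% of 680 in one-sided groups. Over all measured members that edgeR lists the share was 22.1% of 6364, and over such other loci 34.5% of 10364. Biased members were picked by the size of their ratio, and these shares were not tested against each other.

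The member with the highest FPKM was the same in both sexes in 1407 of 1936 groups (72.7%). The leader differed between males and females in 517 groups (26.7%), and in 12 groups all measured members were at 0 in one sex. Of the 517, 249 (48.2%) were led in one sex by less than 1.5-fold. A clear switch, in which each leader was at least 2-fold above the other in its own sex, was found in 180 groups, 9.30% (95% Clopper-Pearson interval 8.04% to 10.7%). Clear switches were present in 64 of 1200 groups of 1 assembled locus (5.33%, interval 4.13% to 6.76%) and in 116 of 736 groups of 2 or more (15.8%, interval 13.2% to 18.6%). These kinds of groups also differed in members listed at 0 in one sex, as given above, and its part in this difference was not tested. Of the 180, 80 were in opposite groups, 16 in concordant male, 8 in concordant female, 43 in one-sided male and 33 in one-sided female groups. In 99 of the 180 groups edgeR lists at least 2 measured members, and edgeR levels gave a switch with a 2-fold lead in 17. Those 17 were counted whether or not the leaders were the same as by FPKM. Both leaders were the same in 32 of the 99, whatever the lead. An edgeR level for each sex was derived from the log2 fold change and the average log2 CPM. The average was taken as the log2 of the mean of the sexes. The edgeR levels carry no length correction and are not the same quantity as FPKM.

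The widest switches by FPKM had no call for the member that made them wide. On Scaffold525, bases 99659 to 103719, GENE_0158729 was listed at 0 in males and at 1343480 FPKM in females, while GENE_0158728 had 8.88 and 4.59 FPKM. On Scaffold765, bases 47084 to 83229, GENE_0063121 was listed at 333674 FPKM in males and at 0 in females, while GENE_0028930 had 1.15 and 2.29 FPKM. These blocks have the widest differences among the one-sided groups. On Scaffold105, bases 625840 to 630347, and on Scaffold96, bases 876199 to 886553, GENE_0107349 and GENE_0083669 were likewise above 10000 FPKM in males and at 0 in females. On Scaffold211, bases 714726 to 723682, GENE_0096958 had 3.27 FPKM in males and 0 in females, and GENE_0011210 had 0 in males and 1.70 FPKM in females. Of the 9 members at 10000 FPKM or more in one sex, all 9 were at 0 in the other sex, Cuffdiff called 0 (also 0 at an unadjusted p under 0.05) and edgeR lists 0, in the authors' deposited tables. Such values are listed here and support no statement on expression.

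The other 3 one-sided blocks named by rule each paired a male-biased member with a partner within 2-fold. On Scaffold351, bases 36301 to 47367, GENE_0103578 had 558 FPKM in males and 0.0193 FPKM in females, beside GENE_0044031 with 18.1 and 9.59. On Scaffold221, bases 386528 to 415837, GENE_0081305 had 144 and 0.0620 FPKM in males and females, beside GENE_0064941 with 1.17 and 1.03. Both male-biased members were called by edgeR in the authors' deposited table (log2 fold changes 13.45 and 10.87, adjusted p = 3.34e-85 and 1.07e-44) and neither by Cuffdiff (adjusted p = 0.182 and 0.453). On Scaffold119, bases 269868 to 273943, GENE_0109956 was listed at 265 FPKM in males and at 0 in females without a call, beside GENE_0109955 with 39.2 and 26.4.

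Members near 0 in one sex were seldom called by Cuffdiff. Of 419 tested members measured in one sex and at 0 in the other, Cuffdiff called 30 (7.16%), against 159 of 160 such other loci (99.4%), in the authors' deposited table. Above 0 but below 0.01 FPKM in the lower sex, Cuffdiff called 0 of 186 members and 0 of 77 other loci at an adjusted p under 0.05, and 2 and 0 at an unadjusted p under 0.05. Of the 162 members of this kind that edgeR lists, edgeR called 81 in the authors' deposited table, and of 74 such other loci it called 63. FPKM ratio and edgeR fold change had the same sign for 5220 of 6381 measured members (81.8%, interval 80.8% to 82.7%) and for 9478 of 10369 measured other loci (91.4%, interval 90.9% to 91.9%). The gap was also present where both sexes were at 1 FPKM or more, 79.0% of 4379 members against 89.4% of 7593 other loci.

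**Figure D4:**
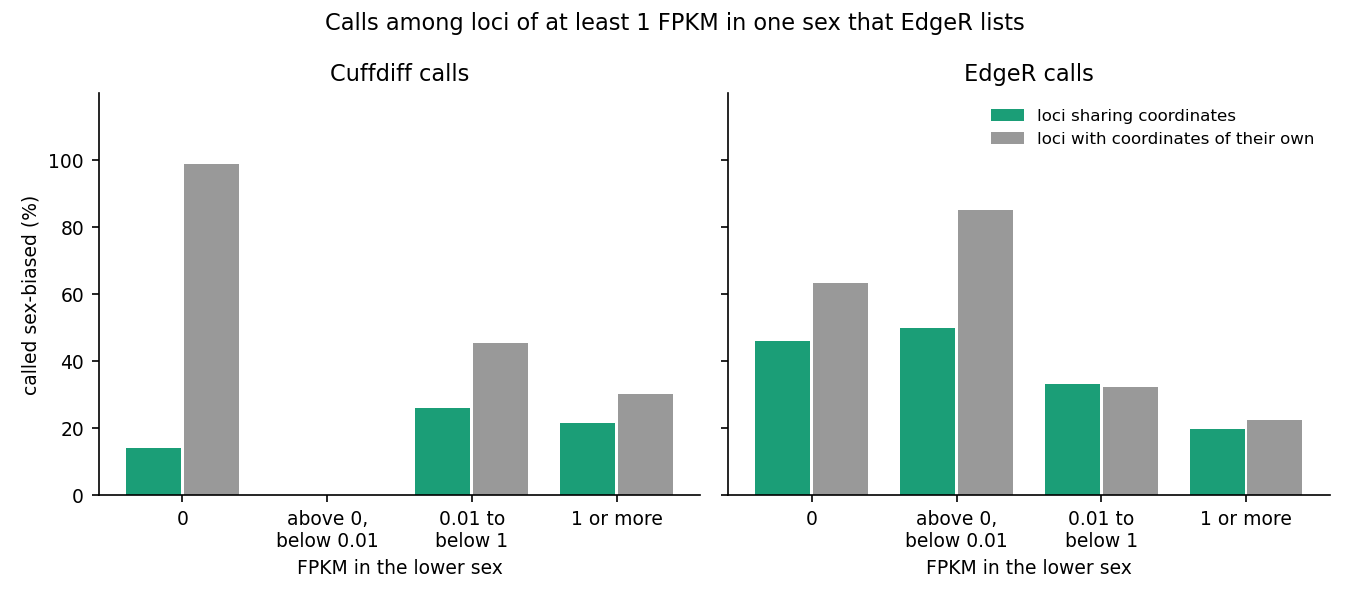
Share called sex-biased, in percent, by Cuffdiff (left) and edgeR (right) among loci of at least 1 FPKM in one sex that edgeR lists, by the FPKM of the lower sex. Green bars are loci sharing coordinates and grey bars loci with coordinates of their own; between 0 and 0.01 FPKM Cuffdiff called none of 162 and 74 loci, and edgeR called 81 and 63 of them.

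A member at 0 FPKM in both sexes was often present in the edgeR table. Of 2389 such members edgeR lists 1219, and 226 of them had an average log2 CPM of 4 or more, against 98 of 704 and 4 for the other loci. A measured member stood in the same group for 210 of the 226. Where the leading member of the group was listed by edgeR, the zero-FPKM member had the same edgeR sign as the leading member in 124 of 194 cases (63.9%). Of 9622 members below 1 FPKM in both sexes that edgeR lists, the authors' deposited table has 1278 called (13.3%), 632 toward males and 646 toward females. The share called below 1 FPKM was 7.58% of 6869 other loci and 11.0% of all 16637 loci.

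The largest size, 9 members, was reached by 6 groups, of which 3 were named in the order of their coordinate strings. The 9 members on Scaffold1, bases 2516176 to 2539371, held 5 measured ones, 4 of them female-biased by FPKM. The highest, GENE_0105116, had 6.70 FPKM in males and 31.4 FPKM in females and was called by Cuffdiff (adjusted p = 0.00161) but not by edgeR (log2 fold change -1.37, adjusted p = 0.0970), in the authors' deposited tables. GENE_0021335 had 4.70 FPKM in males and 22.99 FPKM in females, and GENE_0104523 had 0.738 and 2.16, and edgeR called both female-biased in the authors' deposited table. The block on Scaffold23, bases 311993 to 366846, was unbiased: GENE_0129226 had 6.77 and 7.70 FPKM in males and females, and the other 8 members had at most 1.10 FPKM. On Scaffold25, bases 2203897 to 2235573, none of the 9 members exceeded 0.0522 FPKM in either sex.

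Few members were in the authors' set of loci called by all 3 methods. It held 366 members, 136 male-biased and 230 female-biased, which is 1.48% of the members, against 966 (3.45%) of the other loci. Over all loci the set held 1343 of 61672. Of the measured members, 326 of 7818 (4.17%) were in it. The 3.45% covers other loci whether measured or not, and the share of measured other loci was not taken, so 4.17% has no counterpart here. Cuffdiff, 1 of the 3 methods, called 20.1% of 7798 measured members and 32.1% of 11587 measured other loci in the authors' deposited table. Whether the lower listed levels of members account for their lower share in the set was not tested. The 366 members lay in 357 groups, and 9 groups held at least 2 of them. In those 9 groups the directions were alike, male-biased in 6 and female-biased in 3, and 0 groups held both directions.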

How the data were processed

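Poly(A) RNA of 2 male and 2 female libraries was compared. Per the submitters' processing notes, the authors used TopHat, Cufflinks, Cuffdiff and edgeR, with no versions given. The deposited Cuffdiff tables hold 1 pooled FPKM per sex with a p-value and an adjusted p-value, per the file headers. The authors' edgeR table holds a log2 fold change, an average log2 CPM and p-values for each locus, per the file headers. The authors' edgeR table named for Trinity mode was used, since it holds all rows of their gene map table. Its values are those of the gene map mode: they match that mode's column within 0.001 (log2) for 1343 of 1343 loci in the authors' edgeR and Cuffdiff intersection, and the Trinity mode's column for 2. No value per library was analysed, so no test across libraries could be run, no spread can be given, and depth is unknown. Loci were joined on the test identifier (33763 of the 37449 loci in the authors' edgeR table matched), and assembled loci were read from the isoform table. Ratios are log2 of male over female FPKM, with a 2-fold threshold and a minimum of 1 FPKM in one sex. Calls use an adjusted p under 0.05, and intervals are exact 95% Clopper-Pearson, covering counting error only. Overlapping loci with different coordinates were to be compared too, but there were 0. The members and lists were chosen with earlier results of these data known. Named by rule, among groups whose measured members Cuffdiff had all tested, were the 8 opposite groups with the largest opposing ratios (0.1 FPKM added), the 5 concordant male and 5 concordant female groups with the highest second member, the 5 one-sided groups with the widest difference, the 5 widest clear switches, and 3 of the 6 largest groups whatever their status, with ties broken by coordinate string. Groups called in both directions were named after their values were seen. The classing of groups was run on simulated pairs with levels above 1 FPKM and ratios clear of the 2-fold threshold. That checks the code and says nothing on members near 0 or near the threshold. No gene names are paired with the loci, so no pathway list was used. Tables were handled in Python 3.11.15 with pandas 2.3.3, numpy 2.4.6 and scipy 1.17.1, and plots drawn with matplotlib 3.10.9.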

Additional observations from a re-analysis of the deposited data

How the results depend on the processing

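No paired analysis was possible because the tables hold 1 pooled value per sex and no columns of libraries; for the same reason no library could be left out. The share of opposite groups, 11.1%, became 21.8% with any FPKM above 0, 9.16% at a minimum of 5 FPKM, 5.89% with 1 FPKM added to both sexes, 5.55% with edgeR fold changes, 18.3% at 1.5-fold, 3.56% at 4-fold, 0.155% by Cuffdiff calls, 2.47% by edgeR calls and 7.82% without members below 0.01 FPKM in one sex. The share of concordant groups, 21.2%, became 15.3% with any FPKM above 0, 10.8% with 1 FPKM added, 18.6% with edgeR fold changes, 34.9% at 1.5-fold, 7.64% at 4-fold, 1.81% by Cuffdiff calls and 8.49% by edgeR calls. The share of clear switches, 9.30%, became 5.42% with 1 FPKM added, 3.81% with edgeR levels, 13.8% at 1.5-fold, 4.65% at 4-fold and 5.17% without members below 0.01 FPKM. The share of pairs with the same sign, 64.3%, became 55.3% with any FPKM above 0 and 67.9% at a minimum of 5 FPKM, and that of neighbours, 70.2%, became 72.8% within 2000 bases. At an adjusted p under 0.01 Cuffdiff called 309 male-biased and 674 female-biased members. The cause of these shifts was not tested, beyond what a stricter threshold does by construction. The other 42 settings of these shares and counts stayed within the main interval, or within 1.5 times the main count. The alternatives without members below 0.01 FPKM and without members at 10000 FPKM or more were chosen after seeing the data. Of 26 named opposed pairs of members, 22 have an edgeR value for both, and the edgeR fold change turned the direction for 2 of these: GENE_0005749 minus GENE_0042238 became -2.12 and GENE_0170286 minus GENE_0170281 became -1.05 on the log2 scale. The 22 include the pairs of the 16 groups chosen for opposite edgeR calls, which could not turn. Both pairs that turned are from the 8 opposite groups named by rule, so 2 of 22 is no measure of stability.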
